A study of Homo sapiens with 21 samples.

Results

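Of 21545 HNRNPK binding sites called in 3′ untranslated regions (3′UTRs) in the cytoplasm of parental MDA-MB-231 cells, 3894 were found again both in the cytoplasm of KRT19 knockout cells and in at least 1 nuclear library. These shared sites made up 18.1% of the 3′UTR sites and lay in 2340 genes. They were chosen by position alone: a parental cytoplasmic cluster annotated to a 3′UTR that overlapped, by 1 nt or more on the same strand, a cluster of the KRT19 KO cytoplasm and a cluster of the parental or the KRT19 KO nucleus. Among them, 1323 met a cluster of the parental nucleus only, 1417 of the KRT19 KO nucleus only and 1154 of both nuclei. The series as a whole held 201726 clusters in the parental cytoplasm.

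The sites came from PAR-CLIP, in which cells take up 4-thiouridine, RNA is crosslinked to protein by UV light, and the bound RNA is trimmed with RNase T1, recovered with the protein by an antibody (here one listed as anti-HNRNPK/J) and sequenced. Crosslinked uridines are read as cytidines, and PARalyzer groups reads with such T-to-C changes into clusters, here called sites. The line, MDA-MB-231, is established from triple-negative breast cancer and was used either parental or with KRT19, the gene of the intermediate filament protein keratin 19, knocked out by CRISPR/Cas9. Cytoplasm and nucleus were taken from each genotype, giving 1 library per condition, so no difference between conditions has a replicate check and no p-value is given. Whether the knockout cells were 1 clone was not given in the sources used here. Intervals below are 95% intervals that cover counting error or the spread between sites of a library, not the spread between experiments.

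HNRNPK is an RNA-binding protein with KH domains that prefer cytosine-rich RNA. It is mostly nuclear but shuttles to the cytoplasm, and is known for roles in splicing, RNA retention in the nucleus, mRNA stability and translation. A 3′UTR is present on the transcript in both compartments, so the same stretch of RNA can be bound before and after export. Introns, in contrast, are mostly removed before export.

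The libraries held 5551612 reads in clusters in the parental cytoplasm, 6216226 in the KRT19 KO cytoplasm, 3537577 in the parental nucleus and 3252800 in the KRT19 KO nucleus. The share of reads in 3′UTR sites was 31.6% and 47.4% in the cytoplasms against 5.35% and 5.43% in the nuclei, and the share in introns was 42.3% and 23.0% against 67.0% and 59.7%. The nuclear RNA NEAT1 was higher in both nuclei (789 and 1092 RPM, reads scaled to the reads in clusters of the library) than in both cytoplasms (226.4 and 204 RPM). MALAT1, also a nuclear RNA, went the other way within each genotype, with 1229 RPM in the parental cytoplasm against 888 RPM in the nucleus and 842 RPM against 548 RPM in KRT19 KO cells. Coding-sequence reads made up 2.27% in the parental cytoplasm against 2.34% in the nucleus, and 5.87% against 4.37% in KRT19 KO cells. Mitochondrial reads made up 0.708% against 0.918% in parental cells and 4.64% against 3.72% in KRT19 KO cells. Both shares were thus higher in the cytoplasm in KRT19 KO cells only. The intronic reads and MALAT1 in the cytoplasmic libraries are measured facts about these fractions, and the part of nuclear RNA in the shared sites was not tested.

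The sites with the strongest support in every library are shown as sequence. They are the 12 sites, 1 per gene, whose lowest level over the 4 libraries was highest. Each line gives up to 30 nt around PARalyzer's mode position, as RNA-sense DNA letters 5′ to 3′ from the deposited clusters (hg19). Capitals mark any of 6 words of 5 bases that make up the C-rich HNRNPK motif used here, each a T or an A, then any base but G, then CCC. They were searched on the transcript strand only and may overlap. The words follow an HNRNPK sequence logo. The paper's logo was drawn from cytoplasmic HNRNPK sites of these same cells, so the words may not be independent of these data.
SRSF2 (chr17:74730360-74730389, minus strand): ccccctaaaaatggtaaatctgatcatatc
CLCF1 (chr11:67132114-67132143, minus strand): caattcaggaaacaaacatggtggcaattc
CPSF7 (chr11:61172062-61172091, minus strand): ccTTCCCtttcctccaAACCCCtaactccc
TEAD1 (chr11:12960485-12960514, plus strand): ttctaccacatccaattaacttacacaccc
SRSF1 (chr17:56081769-56081798, minus strand): acttttaagtctcaccTTCCCCtttaaact
PEA15 (chr1:160183567-160183596, plus strand): cacattcctcctacTTCCCtttcctccact
SMAD3 (chr15:67485737-67485766, plus strand): tccaaggagccaacttttaTTCCCtttcct
ERH (chr14:69846942-69846971, minus strand): ttcatatctactttataacattcacatact
ZFP36L1 (chr14:69256166-69256195, minus strand): cccaTACCCtcttctcccTACCCATCCCat
RAB7A (chr3:128533412-128533441, plus strand): tttttcctcttTTCCCCacccatcTCCCCa
NDC1 (chr1:54232765-54232794, minus strand): TTCCCttttTTCCCCaccattcatcttcat
ZC3H11A (chr1:203822381-203822410, plus strand): aactctcccaacaAACCCCtgttgcccagt
All 12 clusters held at least 1 of the words, and in 8 of them a word lay inside the stretch shown. Over all sites found in both nuclei the share with a word was 52.7%. The 12 clusters were 36 to 91 nt long, against a median of 34 nt for sites found in both nuclei, and longer clusters have more places for a word. Their C share ran from 19.7% to 56.4%.

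For contrast, the next 2 lines show sites that were strong in both cytoplasms and absent from both nuclei. The 3 such sites, 1 per gene, with the most parental cytoplasmic reads were those of TMED5 (2720 reads), TRAM1 (2460) and OSTC (2362). The TMED5 and OSTC clusters held none of the words, while the TRAM1 cluster, whose sequence is not shown, held 2.
TMED5 (chr1:93617826-93617855, minus strand): ttttcaatatacaaattttaaaaatactac
OSTC (chr4:109588685-109588714, plus strand): ttcattaaaatatattccatatctacaact

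Whether a 3′UTR site was shared with the nucleus moved strongly with how deeply it was read. Among clusters of 5 to 9 reads in the parental cytoplasm 202 of 6603, or 3.06% (2.67 to 3.50%), were shared sites, and among those of 500 or more reads 508 of 652, or 77.9% (74.6 to 80.9%). The share rose through every class in between, from 7.63% at 10 to 19 reads to 53.2% at 100 to under 500 reads. Shared sites had a median of 87 reads in the parental cytoplasm (quartiles 31 and 252), and sites found in both cytoplasms but in neither nucleus (6444 sites) had a median of 22. Many comparisons of these sets below are therefore also given within depth classes, or for sites of 100 to under 500 reads only. Comparisons given without such values were not matched for depth. Sites of 100 to under 500 reads numbered 1307 and 710, with medians of 196 and 164 reads. This last cut was added after the data were seen.

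**Figure D1:**
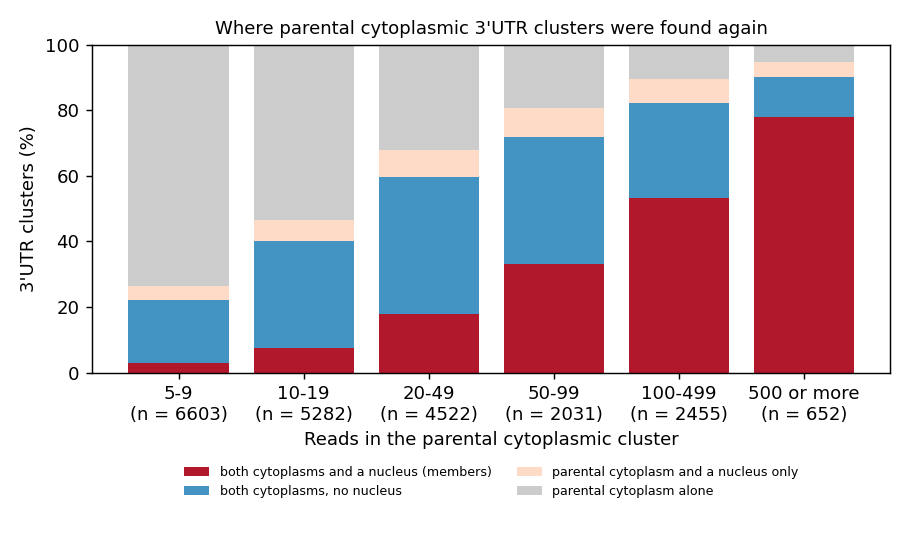
The bars give, for parental cytoplasmic 3′UTR clusters in 6 classes of read count (x axis), the percent (y axis) found in which other libraries. The share found in both cytoplasms and a nucleus rises from 3.06% in the lowest class to 77.9% in the highest.

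The rule admits weak support in the nucleus. In 168 of the 3894 sites the better nuclear cluster held 5 reads, the fewest that any cluster in these libraries had, and in 38 sites the overlap with the nuclear cluster was under 10 nt. Just outside the rule, 61 of the 6444 sites found in both cytoplasms only had a nuclear cluster within 5 nt. The median read count was 20 in the parental nucleus and 19 in the KRT19 KO nucleus. Of the sites found in the parental nucleus, 344 (13.9%) rested on 1 unique read sequence there, and 447 (17.4%) did in the KRT19 KO nucleus, against 44 (1.13%) in the parental cytoplasm.

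The shared sites were richer in the C-rich motif than 3′UTR sites without a nuclear cluster. One of the 6 words was present in 1601 of 3894 shared sites, or 41.1% (39.6 to 42.7%), and in 1407 of 6444 sites found in both cytoplasms only, or 21.8% (20.8 to 22.9%). The difference was 19.3 percentage points (17.4 to 21.1). Over all parental cytoplasmic 3′UTR clusters the share was 24.8%. Intronic sites found in all 4 libraries (6569 sites) stood higher still, at 54.9% (53.7 to 56.1%).

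The motif share was higher in the shared sites in each of the 6 depth classes. It was 31.7% against 17.6% at 5 to 9 reads, a difference of 14.04 points (7.62 to 21.0). It was 42.5% against 23.9% at 100 to under 500 reads, a difference of 18.5 points (14.3 to 22.5). At 500 or more reads, where 80 sites were absent from both nuclei, it was 50.6% against 35.0%, a difference of 15.6 points (3.84 to 26.1). The shared clusters were also longer (median 32 nt against 29 nt). In a fixed window of 31 nt around each centre, an alternative added after the data were seen, the shares were 38.5% and 21.5%.

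**Figure D2:**
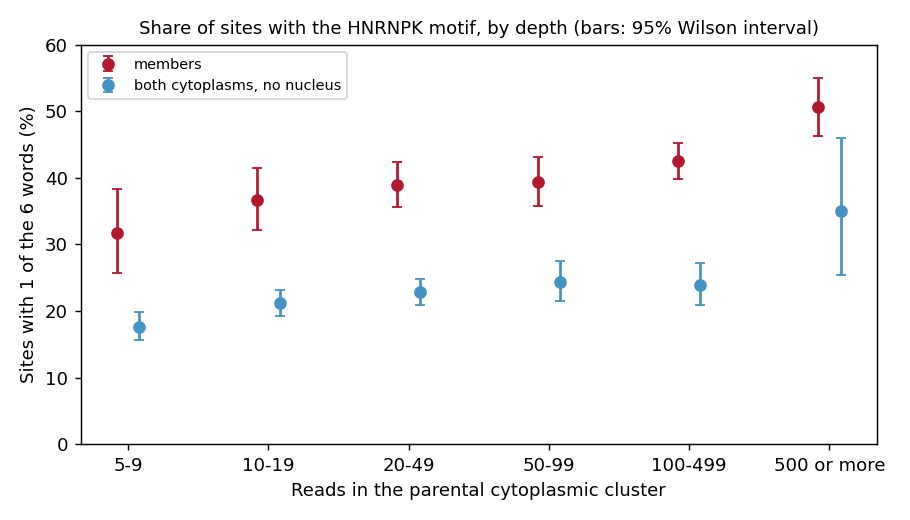
Points give the percent of sites with 1 of the 6 words (y axis) by reads in the parental cytoplasmic cluster (x axis), for shared sites and for sites in both cytoplasms and no nucleus, with 95% Wilson intervals as bars. The shared sites lie higher in all 6 classes, from 31.7% against 17.6% to 50.6% against 35.0%.

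Sites found in both nuclei carried the motif most often. It was present in 52.7% (49.8 to 55.6%) of the 1154 sites with a cluster in both nuclei, in 35.3% (32.8 to 37.9%) of those in the parental nucleus only and in 37.1% (34.6 to 39.7%) of those in the KRT19 KO nucleus only. The sites in both nuclei were also the deepest, with a median of 179 parental cytoplasmic reads against 74 and 62. At least 2 of the words occurred in 27.5% of sites in both nuclei, in 19.3% of all shared sites and in 7.54% of sites found in both cytoplasms only. At 100 to under 500 reads the last 2 shares were 21.04% and 9.44%.

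Over all bases of the clusters C made up 27.0% in shared sites and 22.4% in sites found in both cytoplasms only, while U (T in the sequences) made up 38.1% in each. G was lower in the shared sites (6.24% against 9.18%), and A was 28.6% against 30.3%. At 100 to under 500 reads C made up 26.2% against 20.9%, U 39.1% against 41.4%, G 5.37% against 6.11% and A 29.4% against 31.5%. C was thus the base that was higher in the shared sites at both cuts. RNase T1 cuts after G, and the part of its cutting in these shares was not tested. The median C share per site was 25.7% (25 to 26%) against 21.2% (20.8 to 21.4%). It was higher in the shared sites in every depth class, from 29.6% against 21.7% at 5 to 9 reads to 22.2% (20.9 to 23.3%) against 19.1% (17.1 to 21.2%) at 500 or more reads. The gap was thus narrowest at the deepest sites, where the intervals of the medians met.

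The extra C lay mostly within the cluster. Within 10 nt of the centre C averaged 28.8% in shared sites, 23.3% in sites found in both cytoplasms only and 33.1% in intronic sites found in all 4 libraries. At 40 to 60 nt from the centre the same averages were 19.3%, 18.2% and 19.3%. At 100 to under 500 reads C made up 26.7% of the 31-nt window in shared sites and 21.2% in sites found in both cytoplasms only.

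**Figure D3:**
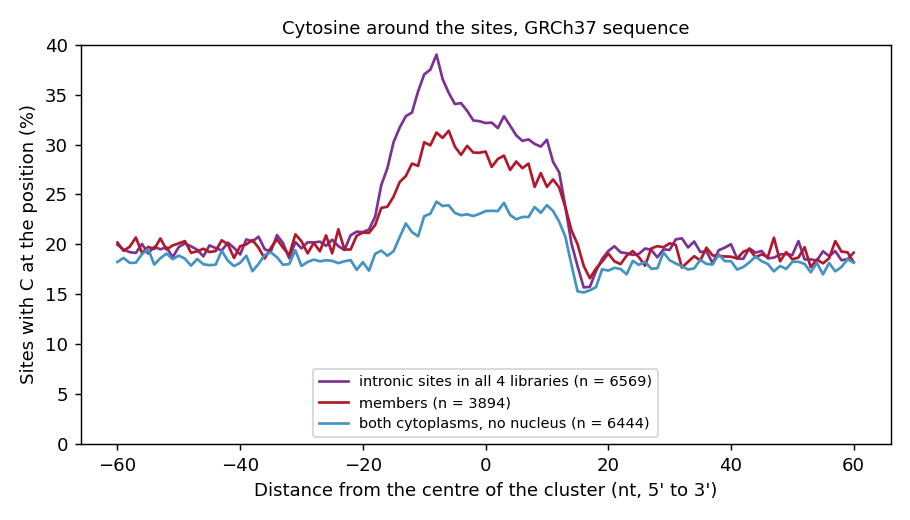
Lines give the percent of sites with C at each position (y axis) by distance in nt from the cluster centre (x axis), in GRCh37 sequence, for 3 sets of sites. The shared sites average 28.8% within 10 nt of the centre, between the intronic sites at 33.1% and the sites in both cytoplasms and no nucleus at 23.3%, and all 3 sets lie near 18% to 19% at 40 to 60 nt.

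Among single words of 5 bases, 9 of the 10 with the highest ratio of shares, shared sites over sites found in both cytoplasms only, contained CCC, the exception being CCACC. These words overlap and are not independent. The words with the lowest ratios contained G. The log2 ratio was −2.07 for TGAAA and −2.01 for ATGTA, larger in size than the 1.14 of ACCCC at the top. The part of RNase T1 cutting in these ratios was not tested. In windows of 31 nt TTCCC was present in 19.5% of shared sites and in 9.82% of sites found in both cytoplasms only, and in 11.3% of all 3′UTR clusters. TCCCC was present in 15.1% against 7.05% (8.58% of all). CCTCCC, the core of an Alu-derived element known to hold RNAs in the nucleus through HNRNPK, was present in 5.50% against 2.64% (3.34% of all). At 100 to under 500 reads the shares were 18.97% against 9.44% for TTCCC, 14.8% against 6.34% for TCCCC and 4.51% against 2.11% for CCTCCC (difference 2.40 points, 0.73 to 3.91).

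Elements that other 3′UTR factors read were not more frequent in the shared sites. ATTTA, the core of AU-rich elements, was present in 14.02% of shared sites against 15.1%, a difference of −1.03 points (−2.41 to 0.38). AATAAA, the polyadenylation signal, was present in 5.06% against 4.97% (−0.76 to 0.98 points). The Pumilio word TGTANATA, which contains G like other words that were rarer in shared sites, was present in 0.462% against 0.993%. Depth changed this picture. At 100 to under 500 reads ATTTA was rarer in the shared sites, at 14.6% against 20.99%, a difference of −6.37 points (−10.004 to −2.89). TGTANATA was then at 0.23% against 0.28% (−0.81 to 0.44 points) and AATAAA at 5.89% against 5.35% (−1.69 to 2.55 points). A match in such a window is a description of letters and not of a bound factor.

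A like contrast was seen when only genes with both kinds of site were kept. In 1448 genes that held both kinds of site, a comparison added after the data were seen, the motif was present in 39.96% of 2775 shared sites and in 21.5% of 3615 sites found in both cytoplasms only, a difference of 18.5 points (16.2 to 20.7). The mean C share was higher in the shared sites in 893 of these genes and lower in 549. With at least 100 reads in each site the motif shares were 38.4% and 25.2% in 289 genes (difference 13.2 points, 7.02 to 19.0). Both motif intervals pool sites over genes and do not pair them within a gene. Median reads were 106 against 23 in the 1448 genes and 323 against 179 with at least 100 reads, so depth was not matched. At that depth the median difference in C between the kinds of site was 2.0 points, with an interval from −0.039 to 3.75 that includes no difference.

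The place of the site in the 3′UTR differed little. By GENCODE annotation lifted to GRCh37, 3870 shared sites could be placed in a 3′UTR, at a median of 41.5% (40.1 to 43.0%) of its length from the end of the coding sequence, against 43.1% (42.0 to 44.2%) for sites found in both cytoplasms only. The 3′UTRs had median lengths of 3227 and 3245 nt. Within 200 nt of the end of the coding sequence lay 10.1% (9.14 to 11.04%) of shared sites against 7.70% (7.08 to 8.38%). Within 100 nt of the annotated transcript end lay 3.51% against 3.07%, and 2.46% against 1.69% at 100 to under 500 reads. A total of 631 shared sites (16.2%) also lay in an annotated intron of another transcript, against 13.8%, a difference of 2.36 points (0.94 to 3.81). At 100 to under 500 reads the median position was 40.4% (38.0 to 42.8%) against 42.6% (39.2 to 46.6%), and 9.36% against 6.06% lay within 200 nt of the end of the coding sequence (difference 3.31 points, 0.83 to 5.60). The intron overlap was then 14.3% against 14.6% (difference −0.34 points, −3.66 to 2.79). The part of unspliced RNA of that transcript in the nuclear reads was not tested, and without these sites the median nucleus over cytoplasm ratio given below was −1.76 in place of −1.70.

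The read level of the shared sites was lower in the nucleus than in the cytoplasm. Since the rule required clusters in both compartments, these levels are a description. The reads of a site follow both its binding and the level of its RNA, which cannot be told apart here. Over the 2477 sites with a parental nuclear cluster, the median log2 ratio of RPM, parental nucleus over parental cytoplasm, was −1.70 (−1.79 to −1.60). Of them 1612 (65.1%) were lower by 2-fold or more and 156 (6.30%) higher, where over all 43293 parental cytoplasmic clusters found in both libraries 10.6% were lower and 38.9% higher and the median was 0.65. In KRT19 KO cells the median over 2571 sites was −2.09 (−2.17 to −1.99), with 70.8% lower and 5.25% higher by 2-fold or more. Over all 18634 parental cytoplasmic clusters found in both KRT19 KO libraries the shares were 17.6% and 44.7%. Both directions turned when reads were scaled to the 3′UTR reads of each library, which gave medians of 0.87 and 1.04. Relative to other 3′UTR sites the shared sites were thus the ones with nuclear reads, as the rule demands, while relative to all reads in clusters they were lower in the nucleus.

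The ratio itself moved with depth. Its median fell from 1.01 for sites of 5 to 9 parental cytoplasmic reads to −3.53 for sites of 500 or more, while the median parental nuclear reads went from 9 to 59. No cluster held fewer than 5 reads, and the part of that minimum in the trend was not tested. C content moved with the ratio as well. The sites were cut into 4 equal groups by the ratio. In the group lowest in nucleus over cytoplasm the median C share was 20% (19.5 to 20.7%) and the motif share 36.9%, and in the highest group they were 33.3% (30.8 to 35.7%) and 48.2%. Among sites of 100 to under 500 parental cytoplasmic reads only (869 sites), the median C share went from 18.8% (17.6 to 20%) in the lowest group to 37.8% (35.3 to 40%) in the highest, and the motif share from 27.1% (21.6 to 33.3%) to 66.8% (60.3 to 72.7%). Median parental cytoplasmic reads in those groups were 284 and 183.

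**Figure D4:**
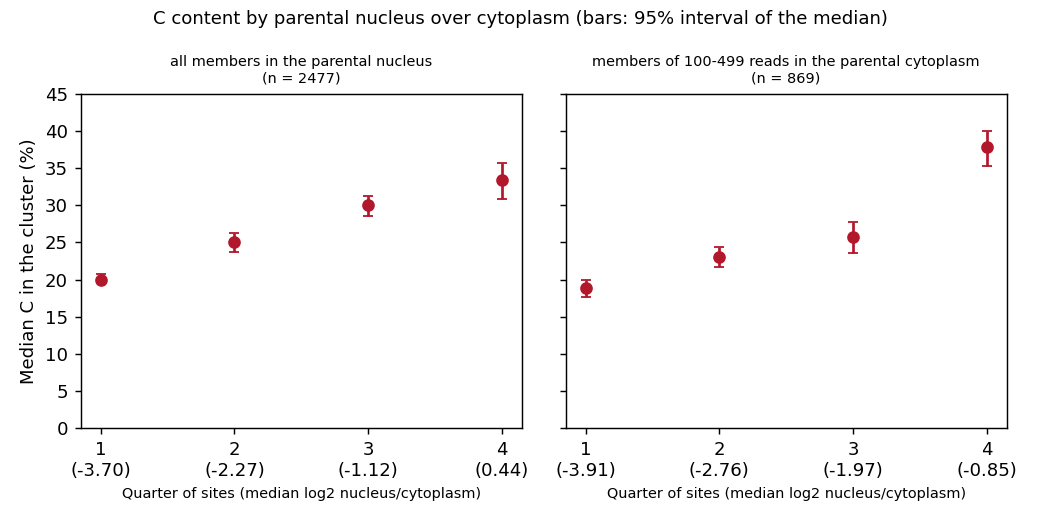
Points give the median C share of the cluster (y axis, percent) in 4 groups of shared sites ordered by the parental nucleus over cytoplasm ratio (x axis, median log2 ratio in brackets), with 95% intervals of the median as bars. The left panel (2477 sites) goes from 20% to 33.3%, and the right panel, limited to 100 to under 500 parental cytoplasmic reads (869 sites), from 18.8% to 37.8%.

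The sites listed above by sequence illustrate the range. SRSF2 and SRSF1 encode SR proteins, which promote exon inclusion. The SRSF2 site, 865 nt past the coding sequence in a 3′UTR of 1054 nt, had 938 RPM in the parental cytoplasm, 1334 in the KRT19 KO cytoplasm, 176 in the parental nucleus and 137 in the KRT19 KO nucleus. The SRSF1 site had 1244, 1147, 122 and 78.7 RPM in the same order. In RPM both were many times lower in each nucleus than in either cytoplasm. Scaled to 3′UTR reads, the log2 ratios of nucleus over cytoplasm at SRSF2 were 0.147 in parental and −0.157 in KRT19 KO cells. At SRSF1 they were −0.780 and −0.741.

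ERH, a small conserved nuclear protein, had the highest cytoplasmic level of the 12, at 1377 and 2029 RPM in parental and KRT19 KO cytoplasm, against 72.4 and 102 RPM in the nuclei. Its log2 ratios of nucleus over cytoplasm were −4.25 and −4.32. ZC3H11A, a zinc finger protein tied to mRNA export, had 625 and 794 RPM in the cytoplasms and 54.0 and 50.1 RPM in the nuclei. These 2 sites had the lowest nuclear share of the 12 in both genotypes.

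CPSF7, a subunit of the cleavage factor that sets polyadenylation sites, had read levels in the 4 libraries that lay close together. Its site, 112 nt past the coding sequence and 52.8% C, had 87.0 RPM in the parental cytoplasm, 113 in the KRT19 KO cytoplasm, 129 in the parental nucleus and 107 in the KRT19 KO nucleus. SMAD3, a transcription factor of TGF-beta signalling, had 155, 103, 170 and 75.6 RPM. CLCF1, a cytokine of the IL-6 family, had 113, 236, 182 and 110 RPM. In parental cells these 3 were higher in the nucleus than in the cytoplasm, and the other 9 were lower. In KRT19 KO cells all 12 were lower in the nucleus. Scaled to 3′UTR reads, 8 of the 12 were higher in the nucleus in parental cells and 7 in KRT19 KO cells.

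Among the rest, TEAD1, a DNA-binding factor of the Hippo pathway, had 252, 219, 94.4 and 80.5 RPM. ZFP36L1, which binds AU-rich elements and speeds mRNA decay, had 160, 391, 67.0 and 148 RPM, and its cluster was the richest in C of the 12 (56.4%). RAB7A, a GTPase of late endosomes, had 418, 525, 58.2 and 106 RPM. The ZFP36L1 and RAB7A sites, and that of CLCF1, also lay in an annotated intron of another transcript. PEA15, a regulator of ERK signalling and apoptosis, had 416, 766, 81.4 and 76.9 RPM. NDC1, a membrane protein of the nuclear pore, had 189, 182, 71.0 and 52.9 RPM.

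**Figure D5:**
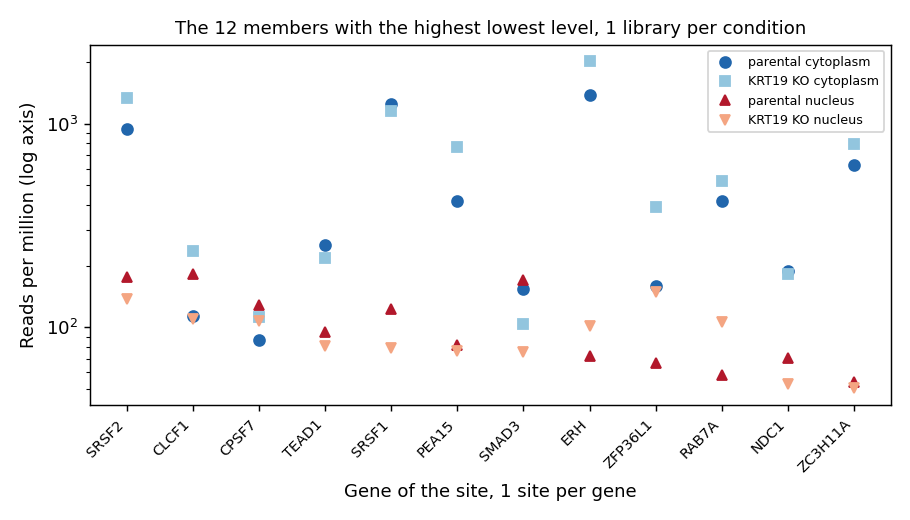
Points give RPM on a log axis (y axis) for the 12 sites, 1 per gene (x axis), in each of the 4 libraries. The cytoplasmic points lie above the nuclear points for SRSF2, SRSF1 and ERH (1377 against 72.4 RPM in parental cells), while the 4 points of CPSF7 lie between 87.0 and 129 RPM.

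At the nuclear end of the range stood sites with few cytoplasmic reads. Among sites with at least 100 reads in the parental cytoplasm and nucleus together (1442 sites), the 5 genes highest in nucleus over cytoplasm were RBCK1, ATF7IP, PABPN1, CD58 and NGDN, with log2 ratios from 2.61 to 2.66. RBCK1, part of a ubiquitin ligase complex, had 5.94 RPM in the parental cytoplasm and 37.6 in the nucleus, and 21.6 against 47.3 RPM in KRT19 KO cells. PABPN1, the nuclear poly(A)-binding protein, had 5.04 and 31.4 RPM, and 8.69 and 43.96 RPM in KRT19 KO cells. All 5 were higher in the nucleus in both genotypes, and 4 of the 5, all but RBCK1, lay in an annotated intron of another transcript. The PABPN1 and ATF7IP sequences are shown because both end in AG, with the words in capitals. The PABPN1 cluster was 48.1% C and the ATF7IP cluster 17.9% C. The RBCK1 and NGDN clusters did not end in AG.
PABPN1 (chr14:23794343-23794369, plus strand): acttcttTTCCCCccTTCCCttcacag
ATF7IP (chr12:14634514-14634541, plus strand): taatctattattatttttcTTCCCttag

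At the other end were YWHAZ, MOB1A, CMPK1, IFIT5 and GOLT1B. YWHAZ, a 14-3-3 adaptor protein, held the deepest of all shared sites, with 6464 RPM (35885 reads) in the parental cytoplasm, 6210 in the KRT19 KO cytoplasm, 2.54 RPM (9 reads) in the parental nucleus and 59.9 in the KRT19 KO nucleus. MOB1A, an activator of Hippo kinases, had 520, 238, 2.54 and 6.15 RPM. The nuclear cluster of each of the 5 held 5 to 10 reads in the parental nucleus. Of these 5 clusters, 1 held a motif word (YWHAZ), and C made up 10.8% to 23.7%, against 4 of 5 and 17.9% to 53.1% at the nuclear end.

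Between genotypes the shared sites were somewhat higher in the KRT19 KO cytoplasm in RPM. The median log2 ratio of RPM, KRT19 KO over parental cytoplasm, was 0.42 (0.39 to 0.47) over all 3894 sites, with 1091 (28.0%) higher and 261 (6.70%) lower by 2-fold or more. Over all 51457 clusters found in both cytoplasms 14.9% were higher and 22.4% lower, and the median was −0.16. The 3′UTR share of reads was itself higher in the KRT19 KO library, and scaled to 3′UTR reads the median over the shared sites was −0.16 (−0.19 to −0.11). The direction between the cytoplasms is thus set by the scaling. In the nuclei the median over the 1154 sites found in both was 0.0077 (−0.036 to 0.12), with 21.5% higher and 20.9% lower by 2-fold or more. These shares were near the 19.5% and 23.5% of all 17073 parental cytoplasmic clusters found in both nuclei. Sites with and without the motif had close medians, 0.45 and 0.42 in the cytoplasm and 0.0077 and 0.0078 in the nucleus.

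Single sites departed widely from these medians, each with a low count on one side. With at least 100 reads in both cytoplasms together (2804 sites), the 5 genes highest in KRT19 KO over parental cytoplasm were SF1, ZKSCAN8, PUM2, ARFIP2 and PTPN1. SF1, which recognises the intron branch point, had 7 parental cytoplasmic reads and 287 in KRT19 KO cells (log2 ratio of RPM 5.19). PUM2, a Pumilio repressor of mRNAs, had 9 and 277 reads (4.78). The 5 lowest were MAL2, DOK4, SKP1, MCUR1 and CORO2B, with log2 ratios from −3.49 to −2.73. SKP1, a subunit of SCF ubiquitin ligases, had 123 and 14 reads. None of the 10 had clusters in all 4 libraries.

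The clusters of the compartments covered the same stretch of RNA but did not share its exact mode. PARalyzer's mode position, the peak of its conversion signal, fell on the same nucleotide in the parental cytoplasm and the deeper nuclear cluster in 7.81% (7.01 to 8.69%) of shared sites, and within 2 nt in 26.1%. By library it was 9.04% for the parental nucleus and 6.22% for the KRT19 KO nucleus. Between the 2 cytoplasms it was 15.5% (14.4 to 16.7%), and between the 2 nuclei 8.58% (7.10 to 10.3%), so nuclei differed from each other about as often as from the cytoplasm. The mode was a T in 45.2% of parental cytoplasmic clusters and lay at the 5′ end of 51.4% of them, so it is not read here as the crosslinked nucleotide.

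The 3′ ends agreed more often than the 5′ ends. Cluster 3′ ends were identical in 54.9% of shared sites between the parental cytoplasm and nucleus and in 50.95% between the cytoplasms, and 5′ ends in 10.9% and 22.1%. In sites absent from both nuclei, 3′ ends were identical between the cytoplasms in 58.4%. The last base of the parental cytoplasmic cluster was G in 58.8% of shared sites. RNase T1 cuts after G, and its part in the agreement of 3′ ends was not tested. The nuclear counterparts were annotated as 3′UTR at all 2477 sites in the parental nucleus and at 2568 of 2571 in the KRT19 KO nucleus. Their own sequences held a motif word in 39.4% and 38.5%. The median overlap with the shared site was 28 and 25 nt, so annotation and motif share follow largely from the rule of overlap. The share of reads with a T-to-C change over the shared sites was 51.4% and 54.4% in the parental and KRT19 KO cytoplasms and 61.8% and 65.5% in the nuclei.

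By gene, 1507 of the 2340 genes (64.4%) held 1 shared site, and 88 held 5 or more. The 8 genes with the most were ABL2 (13 sites), NFAT5 (12), SOGA1 (11), CBX5 and ATF7 (10 each), and TEAD1, UHMK1 and EGFR (9 each). All 8 had long 3′UTRs, from 5086 nt in ATF7 to 10816 nt in CBX5, and sites of 1 gene share its transcript level.

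ABL2, a cytoplasmic tyrosine kinase related to ABL1, showed shared sites from 1113 to 6779 nt past its coding sequence. Its deepest site had 1822 reads in the parental cytoplasm, 3372 in the KRT19 KO cytoplasm and 473 in the parental nucleus and no cluster in the KRT19 KO nucleus. The next, 4239 nt past the coding sequence, had 1178, 2665, 157 and 56 reads. Of its 13 shared sites 6 held the motif, and of its 9 sites found in both cytoplasms only 0 did. In SOGA1 the motif was present in 7 of 11 shared sites and in 0 of 4 found in both cytoplasms only, and in ATF7, a transcription factor of the CREB family, in 7 of 10 and 0 of 5 in the same order. All 11 shared sites of SOGA1 and all 10 of ATF7 also lay in an annotated intron of another transcript, against 16.2% of all shared sites. The part of unspliced RNA in their nuclear reads was not tested. In EGFR, the receptor of epidermal growth factor, the motif was rare, in 1 of 9 shared sites and in 0 of 1 found in both cytoplasms only. The median C share of its shared sites was 19.0%, lower than the 33.3% of that single other site. In CBX5, which encodes the heterochromatin protein HP1-alpha, the motif was present in 4 of 10 shared sites and in 6 of 19 found in both cytoplasms only.

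Genes with known links to HNRNPK were taken one by one. MDM2, the ubiquitin ligase that limits p53, held 3 shared sites among 7 3′UTR clusters. The middle one, 1718 nt past the coding sequence, had 1006 and 1721 reads in the cytoplasms of parental and KRT19 KO cells and 158 and 154 in the nuclei. None of its 3 shared sites held a motif word. EIF4E, the cap-binding translation factor, held 1 shared site among 5, with 50, 97, 18 and 21 reads in the same order, and it held the motif. HNRNPK's own 3′UTR had 4 clusters and no shared site, of which 2 were found in both cytoplasms only. MYC and SRC each had 1 3′UTR cluster and no shared site.

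NUCKS1, LPP and CDK6, which the paper's text does not name, were listed with earlier results of these data known. NUCKS1, a chromatin-associated DNA repair protein, held 8 shared sites among 32 clusters. Its deepest had 7763 and 21287 reads in the cytoplasms and 139 in the parental nucleus, with no cluster in the KRT19 KO nucleus. LPP, a focal adhesion protein, held 8 among 37, and none of the 8 was found in both nuclei. CDK6, a G1 cell cycle kinase, held 5 among 30, the deepest with 1321 and 1375 reads in the cytoplasms, no cluster in the parental nucleus and 47 reads in the KRT19 KO nucleus.

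Across 12 gene lists, the genes with a shared site are set against 36.9%, the share over all 6340 genes with a parental cytoplasmic 3′UTR cluster. The Hippo pathway and TEAD factors stood highest, with 12 of 15 genes, among them MOB1A, TEAD1, YAP1 and WWTR1. SR splicing factors had 7 of 10 (SRSF1, SRSF2, TRA2A and SRSF11 with the most reads), and hnRNP and poly(C)-binding proteins 16 of 24 (HNRNPU, HNRNPAB, SYNCRIP and HNRNPA3). Chromatin and heterochromatin factors had 10 of 20, E2F and G1/S genes 10 of 21 (CCND1, CDK6, E2F7 and CDKN1B), translation initiation factors 9 of 20, TGF-beta receptors and SMADs 7 of 16, and microRNA machinery 4 of 9. The p53 targets and regulators had 8 of 20 (THBS1, MDM2, PERP and MDM4) and intermediate filament proteins 3 of 6 (KRT80, LMNA and LMNB2). Below the share over all genes were integrins and focal adhesion proteins with 4 of 13 and cytosolic ribosomal proteins with 6 of 21. These lists are small, genes with more reads and longer 3′UTRs have more chances to hold a site, and the shares were not tested.

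Most genes with a shared site were also bound in their introns in the nucleus, as were most genes with a site found in both cytoplasms only and no shared site. An intronic cluster was present in the parental nucleus in 90.9% (89.7 to 92%) of the 2340 genes, with a median of 151 intronic reads, and in 86.4% (84.8 to 87.9%) of the 1806 genes that held a site found in both cytoplasms only and no shared site, with a median of 93.5. In the KRT19 KO nucleus the shares were 90.3% and 85.5%. These sets of genes were not matched for depth, and the share over all 6340 genes with a parental cytoplasmic 3′UTR cluster was not taken.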

How the data were processed

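The 4 PAR-CLIP libraries were analysed, 1 per condition. A further 17 RNA-seq samples were not analysed here. Per the study's methods the authors demultiplexed reads with bcl2fastq 2.20.0, aligned them to hg19, removed PCR duplicates by UMI, and called and annotated clusters with PARalyzer inside PARpipe. The submitters' processing notes list hg38, but the sequences of all 3894 shared sites equalled GRCh37 at their coordinates. The deposited tables hold raw counts of reads, unique reads and T-to-C reads per cluster, which were used. The deposited fraction, score and log10 columns were not used.

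Clusters were joined by 1 nt or more on 1 strand. Where several clusters overlapped a site, their reads were summed, and neighbouring sites can share a counterpart. Reads were scaled to RPM, the reads in clusters of a library. Shares have Wilson intervals, their differences Newcombe intervals and medians binomial order-statistic intervals at 95%. No model was fitted, and functions were tested on simulated data. Positions use GENCODE v44 lifted to GRCh37, with the stop codon counted in the 3′UTR. Software was Python 3 with pandas, scipy and pysam.

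The sites, gene lists and tests were chosen with earlier results of these data known. Named were the 12 sites with the highest lowest RPM over the 4 libraries, the 8 genes with most sites, the 5 highest and 5 lowest sites in each of 2 ratios among those with at least 100 reads, 1 per gene, 10 listed genes, and up to 4 genes per list by reads. Of the 10 listed genes, the paper's text names HNRNPK, MDM2, EIF4E, MYC and SRC. It does not name NUCKS1, CBX5, LPP, TEAD1 and CDK6. The contrast sequences and those of PABPN1 and ATF7IP were chosen after their values were seen. Intervals of shares cover counting error only, and those of medians the spread between sites.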

Additional observations from a re-analysis of the deposited data

Results flagged for a closer look

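Among the sites whose values are given in the report and which were found in all 4 libraries, 12 contrasts of RPM had opposite signs between the 2 genotypes or the 2 compartments. With 1 library per condition none of these differences was tested, and each value is a difference of 2 log2 ratios.

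For KRT19 KO over parental, nucleus minus cytoplasm, the difference was −0.86 at the SRSF2 site, −1.79 at CLCF1, −0.65 at CPSF7, −0.96 at PEA15, −0.45 at ZC3H11A, −1.54 at ATF7IP and −2.38 at the ABL2 site 4239 nt past the coding sequence. At these 7 sites the RPM of KRT19 KO cells was higher in the cytoplasm and lower in the nucleus. The opposite was seen at YWHAZ, with a difference of 4.62, and at MOB1A, with 2.40. At both of these the parental nucleus held 9 reads. Scaled to 3′UTR reads, 5 of the 9 signs stayed opposite. The differences were then −1.23 at CLCF1, −0.40 at PEA15, −1.82 at ABL2, 5.18 at YWHAZ and 2.96 at MOB1A. The cytoplasmic ratios of SRSF2, CPSF7, ZC3H11A and ATF7IP turned negative, at −0.076, −0.21, −0.24 and −0.23, so that both of their ratios had the same sign.

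For nucleus over cytoplasm, KRT19 KO minus parental, the difference was −1.79 at CLCF1, −0.65 at CPSF7 and −0.59 at SMAD3. In RPM these 3 sites were higher in the nucleus in parental cells and lower in the nucleus in KRT19 KO cells. Scaled to 3′UTR reads all 3 were higher in the nucleus in both genotypes, with log2 ratios of 3.24 and 2.02 at CLCF1, 3.14 and 3.05 at CPSF7, and 2.70 and 2.67 at SMAD3. For CLCF1 and CPSF7 the difference is the same quantity as above.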

How the results depend on the processing

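No paired analysis was possible because each PAR-CLIP condition had 1 library and no replicate number. Scaling to 3′UTR reads turned the direction of both ratios, to 0.87 for parental nucleus over cytoplasm and −0.16 for KRT19 KO over parental cytoplasm. No other alternative turned the direction of a ratio or of the motif difference. The share of clusters, the median C share and the share with the same mode are percentages without a direction, so they could not turn. Of 46 alternatives 24 stayed within the interval of the reported value.

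The share of 3′UTR clusters that were shared sites became 19.7% with at least 10 reads per cluster, 15.04% with at least 2 conversion locations, 5.36% with both nuclei required and 13.8% anchored on the KRT19 KO cytoplasm. The motif difference became 24.7 points with 2 conversion locations, 30.9 with both nuclei required, 15.6 with TTCCC or TCCCC only and 17.0 in the fixed window. The median C share became 27.3% with 2 conversion locations, 28.1% with both nuclei and 23.5% at 100 or more reads. The median log2 ratio of parental nucleus over cytoplasm became −1.79 with 2 conversion locations, −1.90 with both nuclei, −1.85 with 1 site per gene and −1.82 with unique reads. That of KRT19 KO over parental cytoplasm became 0.37, 0.37, 0.36 and 0.32 in the same order. The share of sites with the same mode rose to 26.1% within 2 nt.

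3′UTR sites held 189086 and 176710 reads in the nuclei against 1756384 and 2946853 in the cytoplasms. Whether a site without a nuclear cluster reflects the depth of the libraries, their composition or the RNA was not tested.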
